A study of Mus musculus with 24 samples.

Results

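The mRNA levels of 48 cell cycle and p53 growth arrest genes were examined in the livers of mice fasted for 24 h. The genes were given as a list of symbols, and all 48 were found among the 54532 genes of the count table. By role, 8 act in G1 and S phase entry, 11 in DNA replication and nucleotide supply, 23 in G2 and mitosis, and 6 are p53 targets or growth arrest genes. The study asked how loss of the small GTPase Rab30, alone or together with loss of Cpt2, changes the fasted liver. Cpt2 is a mitochondrial enzyme required to oxidize long chain fatty acids.

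RNA-seq was performed on 24 livers of young adult male C57BL/6J mice, with 4 livers in each of 6 groups. Rab30KO mice lacked Rab30 in the whole body, and their wildtype littermates are called Rab30 Ctrl. Rab30L-/- and Cpt2L-/- mice carried a floxed Rab30 or Cpt2 allele deleted by Cre under the albumin promoter, which is active in hepatocytes and leaves the other liver cells intact. DKO mice lost both genes in the same way. The ff;ff mice carried the floxed Rab30 and Cpt2 alleles without Cre and were littermates of the DKO mice. The sources do not say that they were littermates of the Rab30L-/- or Cpt2L-/- mice. Libraries are named by group and replicate, and the replicate number only names a library.

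Most hepatocytes of the adult liver rest outside the cell cycle. To enter S phase, cyclin D with Cdk4 or Cdk6 phosphorylates the pocket proteins, which releases E2F transcription factors. These induce the Mcm2 to Mcm7 subunits of the replicative helicase and the enzymes that make deoxynucleotides. Mitosis requires cyclin B with Cdk1, the Aurora and Polo kinases and the spindle checkpoint. The transcription factor p53 opposes this through Cdkn1a (p21), an inhibitor of cyclin-dependent kinases, and is itself held down by Mdm2. E2f8 is an atypical E2F that represses E2F target genes and is known for its part in hepatocyte polyploidy.

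E2F factors bind near the start sites of many of the replication genes, so the promoters of members that moved apart with loss of Cpt2 are shown. RefSeq windows of 300 bases, from 250 before to 50 after the start site on GRCm38.p6, were matched by symbol for 38 of the 48 genes, and the window nearest to the gene's own 5' end was used. The E2F motif was searched on both strands as TTTCCCGC, TTTCGCGC, TTTGCCGC and TTTGGCGC, whose matches can overlap each other. It was found in 5 of the 38 windows (13.2%) and in 2.64% of the 20449 windows of all genes. Of those 5, 4 belong to the 10 replication and nucleotide supply windows (Mcm3, Mcm5, Mcm6 and Mcm7) and the other is that of Cdk1. The 7 windows below show members of either direction with and without a match. Mcm7, called higher in both comparisons of Cpt2 loss described below, Mcm3 and Mcm6, each called higher in 1 of them, and Cdk1, called lower in 1, hold a match. E2f8, called higher in both, and Tk1 and Rrm2, called lower in both, hold none, nor does Mcm2, which was called higher in 1. The other called members with a window hold none either. These are Birc5 and Pttg1, called in both, and Cdkn2c, Rrm1, Hjurp, Mdm2 and Gadd45b, called in 1. Capitals mark the matches, and windows without capitals hold none of these letters.
Mcm3, chr1:20820263-20820562 (minus strand): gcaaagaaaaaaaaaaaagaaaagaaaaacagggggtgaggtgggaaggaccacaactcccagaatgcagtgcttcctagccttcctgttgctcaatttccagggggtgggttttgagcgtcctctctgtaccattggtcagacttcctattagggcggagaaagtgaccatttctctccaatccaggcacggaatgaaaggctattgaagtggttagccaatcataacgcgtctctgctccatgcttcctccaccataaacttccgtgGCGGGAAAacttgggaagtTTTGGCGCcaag
Mcm6, chr1:128359656-128359955 (minus strand): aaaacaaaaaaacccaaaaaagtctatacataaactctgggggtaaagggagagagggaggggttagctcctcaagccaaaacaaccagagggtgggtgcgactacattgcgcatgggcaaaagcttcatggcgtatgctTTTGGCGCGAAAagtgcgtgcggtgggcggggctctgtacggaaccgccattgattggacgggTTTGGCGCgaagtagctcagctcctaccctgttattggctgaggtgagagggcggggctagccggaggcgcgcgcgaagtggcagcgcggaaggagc
Mcm7, chr5:138171834-138172133 (minus strand): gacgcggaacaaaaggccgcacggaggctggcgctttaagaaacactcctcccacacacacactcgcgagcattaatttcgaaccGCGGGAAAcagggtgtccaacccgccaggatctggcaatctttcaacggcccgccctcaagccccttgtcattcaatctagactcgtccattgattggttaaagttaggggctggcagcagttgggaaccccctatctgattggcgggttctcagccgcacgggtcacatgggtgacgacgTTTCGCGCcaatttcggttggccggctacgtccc
Tk1, chr11:117825965-117826264 (minus strand): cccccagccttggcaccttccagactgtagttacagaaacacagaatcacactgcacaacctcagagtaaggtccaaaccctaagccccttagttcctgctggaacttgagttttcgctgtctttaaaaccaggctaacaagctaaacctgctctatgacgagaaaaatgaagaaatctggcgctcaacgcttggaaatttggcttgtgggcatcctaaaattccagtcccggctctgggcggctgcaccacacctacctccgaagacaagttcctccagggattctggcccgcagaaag
Rrm2, chr12:24708004-24708303 (plus strand): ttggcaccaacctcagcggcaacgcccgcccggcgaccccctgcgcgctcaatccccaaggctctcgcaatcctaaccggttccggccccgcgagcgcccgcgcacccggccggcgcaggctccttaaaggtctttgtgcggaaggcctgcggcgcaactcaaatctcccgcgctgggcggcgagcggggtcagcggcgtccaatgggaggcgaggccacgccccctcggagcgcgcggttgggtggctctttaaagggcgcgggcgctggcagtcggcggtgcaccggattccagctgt
E2f8, chr7:48881547-48881846 (minus strand): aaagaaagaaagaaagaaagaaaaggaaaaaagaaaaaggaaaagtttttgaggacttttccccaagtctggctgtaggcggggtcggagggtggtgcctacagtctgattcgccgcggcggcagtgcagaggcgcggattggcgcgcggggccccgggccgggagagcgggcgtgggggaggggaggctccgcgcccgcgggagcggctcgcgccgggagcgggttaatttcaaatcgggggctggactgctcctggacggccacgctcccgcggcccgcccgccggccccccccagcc
Cdk1, chr10:69352863-69353162 (minus strand): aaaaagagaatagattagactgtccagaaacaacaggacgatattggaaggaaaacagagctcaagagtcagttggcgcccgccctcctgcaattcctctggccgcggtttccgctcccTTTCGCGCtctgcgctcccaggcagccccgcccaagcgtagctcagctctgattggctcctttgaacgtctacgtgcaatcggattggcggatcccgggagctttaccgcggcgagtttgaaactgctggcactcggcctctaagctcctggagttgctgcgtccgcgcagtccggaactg

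3 other motifs were searched on both strands. The CHR element TTTGAA, known from mitotic promoters, lay in 16 of the 38 windows (42.1%) against 16.9% of all windows. The letters CCAAT lay in 29 (76.3%) against 38.2%, and the E-box CACGTG in 3 (7.89%) against 7.67%. A match of letters is a description of the sequence and not a binding site.

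Most of the 23 G2 and mitosis genes were low across the 24 libraries, apart from Hjurp and Pttg1. In FPKM, which divides by gene length, the highest mean levels were those of Ccng1 (13.7), a p53 target, Btg2 (10.8), an antiproliferative factor, Cdkn1a (10.6), the sliding clamp Pcna (10.6), the centromere chaperone Hjurp (10.3) and Mdm2 (9.14). The lowest were those of the spindle checkpoint kinase Bub1 (0.0143) and of cyclin B1, Ccnb1 (0.0365). Bub1 had no read in 13 of the 24 libraries and Aurkb, a mitotic kinase, none in 7. For values in single libraries CPM are used, which are counts scaled to the library total over genes that passed the count filter times its TMM factor, and not to gene length.

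**Figure D1:**
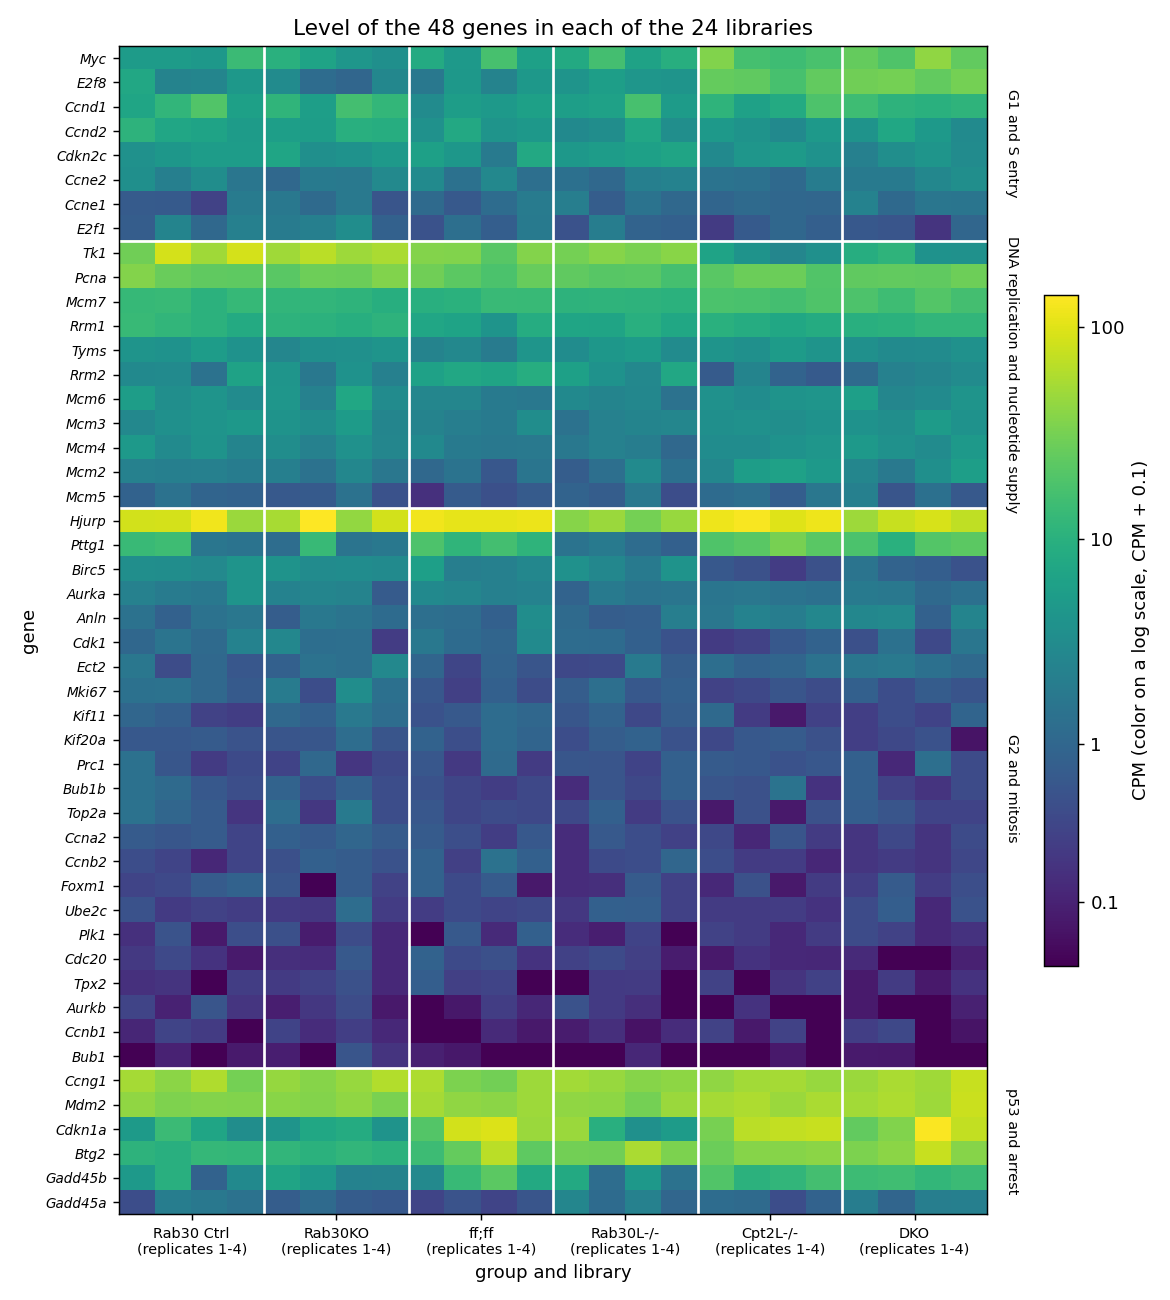
CPM of the 48 genes (rows, grouped by role and ordered by mean level) in the 24 libraries (columns, 4 for each group), with color on a log scale after adding 0.1 CPM. Most G2 and mitosis genes stay near or below 1 CPM in every group, and the rows of E2f8, Tk1, Rrm2, Birc5 and Pttg1 change between groups.

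The 23 G2 and mitosis genes together summed to between 45.3 and 172 CPM per library, with Hjurp as the largest part. Leaving out Pttg1, Hjurp and Birc5, the remaining 20 G2 and mitosis genes together summed to between 8.06 and 22.5 CPM per library, less than Hjurp alone, which ranged from 30.8 to 142 CPM. Mki67, the classic marker of dividing cells, lay between 0.296 and 3.39 CPM, and Top2a, the topoisomerase that untangles sister chromatids, between 0.0641 and 1.88 CPM. Both, described after their values were seen, were highest in Rab30KO replicate 3. In this library the summed level of 8 Kupffer cell and macrophage markers (1331 CPM) and that of 8 lymphocyte markers (53.8 CPM) were also the highest of the 24, and their part in the Mki67 and Top2a values was not tested. In whole liver RNA, fewer cells of a type and less RNA per cell cannot be told apart.

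A gene was tested where its counts were high enough, and it was called when its adjusted p was under 0.05 and its change at least 1.2-fold by edgeR's quasi-likelihood test, adjusted over all genes tested. Of the 48 genes, 30 passed the count filter in all 7 comparisons, 40 in at least 1 and 8 in none (Ccnb1, Aurkb, Plk1, Bub1, Cdc20, Foxm1, Tpx2 and Ube2c). A total of 19 were called in at least 1 comparison. The share of all genes called in at least 1 was not counted, and the shares in each comparison are given below. Library totals ranged from 11801027 to 24497738 counts, with a median of 14358966. The targeted genes were checked in every group. Cpt2 averaged 127 CPM in Cpt2L-/- and 105 in DKO, against 132 in ff;ff and 219 in Rab30L-/-. It was called lower in DKO than in Rab30L-/- (log2 fold change -1.07, adjusted p = 4.5e-04, edgeR), did not overlap between DKO and ff;ff without being called (-0.34, adjusted p = 0.0911), and was not called in Cpt2L-/- against ff;ff (-0.07, adjusted p = 0.788). Rab30 averaged 17.1 CPM in Rab30L-/- and 36.6 in ff;ff (-1.10, adjusted p = 0.174), and 11.2 in Rab30KO and 14.1 in Rab30 Ctrl, neither difference being called. Rab30 was highest in Cpt2L-/- (147 CPM) and in DKO (161 CPM), and thus higher in DKO, labelled as lacking Rab30, than in ff;ff (2.13, adjusted p = 5.5e-04). Whether these reads came from outside the deleted exons was not tested, and the libraries are named by their labels. Hepatocyte markers were abundant in all 24 libraries. Their summed level was 43278 to 52045 CPM in Cpt2L-/- and 57410 to 69223 in DKO, below the 89894 to 117964 of ff;ff and the 75036 to 88858 of Rab30L-/-.

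Loss of Cpt2 moved replication genes in opposite directions. In Cpt2L-/- against ff;ff, E2f8, cyclin D1 (Ccnd1), Pttg1 and the helicase subunits Mcm2, Mcm4, Mcm6 and Mcm7 rose, while Tk1 and Rrm2, which supply deoxynucleotides, Birc5 (survivin) and Cdk1 fell. Thus 7 of the 33 members tested were higher and 4 lower, where 11.9% of all genes tested were higher and 11.9% lower. The median log2 fold change was 0.18 over the members tested and -0.0035 over all genes tested. Loss of Cpt2 in livers that also lacked Rab30 (DKO against Rab30L-/-) gave 10 higher and 4 lower of 33 members tested. The background there was 14.9% higher and 15.8% lower, and the medians were 0.44 and -0.012. The comparisons have no library in common. Of 31 members tested in both, 11 and 14 were called and 7 in both, all 7 in the same direction (22.6% of the 31, against 13.0% of the 12970 genes tested in both). The 7 were E2f8, Mcm4, Mcm7, Pttg1, Tk1, Rrm2 and Birc5.

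**Figure D2:**
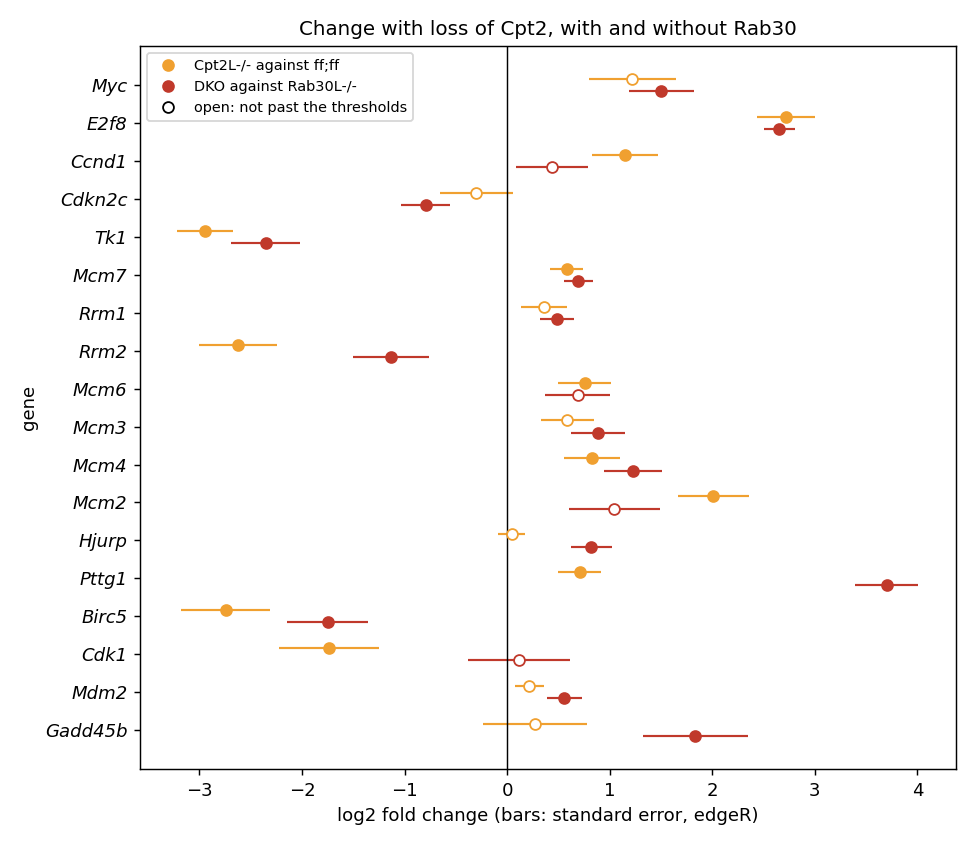
Log2 fold change, with an SE derived from edgeR's F test, of the 18 members called in Cpt2L-/- against ff;ff (orange) or DKO against Rab30L-/- (red), filled where called. E2f8 lies near 2.7 in both, and Tk1, Rrm2 and Birc5 lie below -1 in both.

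E2f8 (ENSMUSG00000046179, chr7:48866429-48881596, minus strand of GRCm38) had the largest rise of any member in Cpt2L-/- against ff;ff. It was at 1.75, 4.67, 2.44 and 4.70 CPM in ff;ff and at 25.1, 24.0, 17.1 and 25.1 CPM in Cpt2L-/-. In Rab30L-/- it was at 4.15, 5.77, 4.49 and 4.18 CPM and in DKO at 29.3, 31.0, 25.0 and 31.1 CPM. Every library that lost Cpt2 lay above every other library of the study, the Rab30KO mice and their littermates included, whose highest value was 7.77 CPM. Its log2 fold change, with a standard error (SE) derived from the F test, was 2.72 (SE 0.29, adjusted p = 3.1e-05, edgeR) in Cpt2L-/- against ff;ff and 2.65 (0.15, adjusted p = 2.2e-06) in DKO against Rab30L-/-. Both calls held in every fit without 1 library. The antisense transcript Gm2788 shares 610 exonic bases with E2f8, and no source states that counting used strand. Gm2788 rose in the same comparisons by log2 fold changes of 2.32 and 1.24, so that reads of the 2 genes in the shared stretch cannot be told apart.

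The other G1 and S entry genes that were called changed less evenly. Myc, a growth transcription factor and the member of this role with the highest mean FPKM (5.08), was at 8.15, 15.9, 6.46 and 9.34 CPM in Rab30L-/- and at 25.8, 19.2, 42.0 and 25.0 CPM in DKO. The DKO libraries did not overlap the Rab30L-/- libraries, and the rise was 1.5 on the log2 scale (SE 0.32, adjusted p = 0.00656, edgeR). In Cpt2L-/- Myc was at 36.1, 16.4, 14.9 and 17.7 CPM against 8.39, 4.97, 16.9 and 6.03 in ff;ff. These groups overlapped, and the log2 fold change of 1.22 was not called (adjusted p = 0.0625), though DESeq2, limma-voom, 1 fit over all 24 libraries and the fit without ff;ff replicate 3 called it. Ccnd1 was at 3.23, 5.62, 5.02 and 6.03 CPM in ff;ff, against 11.1, 6.29, 8.35 and 18.9 in Cpt2L-/- (log2 fold change 1.15, adjusted p = 0.0209, edgeR). This call ended on removal of ff;ff replicate 1 or Cpt2L-/- replicate 4, and with limma-voom (adjusted p = 0.0837). The gene Oraov1 shares 1100 exonic bases with it on the opposite strand and rose as well (1.09). In DKO Ccnd1 was at 14.8, 10.9, 9.95 and 11.1 CPM, and in Rab30L-/- at 5.81, 6.19, 17.1 and 5.24, where replicate 3 stood apart and no call was made (0.44, adjusted p = 0.384), but it was called without that library and by limma-voom. Cdkn2c (p18), which inhibits Cdk4 and Cdk6, was at 4.76, 5.36, 6.08 and 6.76 CPM in Rab30L-/- and at 2.23, 3.48, 4.29 and 3.19 in DKO. It fell there by 0.79 on the log2 scale (adjusted p = 0.0248), and the call ended on removal of Rab30L-/- replicate 3 or 4 or DKO replicate 1 or 4. Ccnd2, Ccne1, Ccne2 and E2f1 were tested in both comparisons and called in neither.

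All 6 helicase subunits had positive log2 fold changes in both comparisons, from 0.58 to 2.01 in Cpt2L-/- against ff;ff and from 0.24 to 1.22 in DKO against Rab30L-/-. By edgeR, Mcm2, Mcm4, Mcm6 and Mcm7 were called in the first and Mcm3, Mcm4 and Mcm7 in the second, and Mcm5 in neither (adjusted p = 0.0642 and 0.765). With limma-voom, Mcm5 was called in the first. Mcm2 was at 1.05, 1.48, 0.627 and 1.59 CPM in ff;ff and at 2.75, 5.67, 6.28 and 4.87 in Cpt2L-/- (log2 fold change 2.01, SE 0.35, adjusted p = 9.9e-04, edgeR). In Rab30L-/- it was at 0.755, 1.32, 3.14 and 1.37 CPM and in DKO at 2.72, 1.81, 3.64 and 5.77. The last pair of groups overlapped and was not called (1.05, adjusted p = 0.0984), except without Rab30L-/- replicate 3 and in 1 fit over all 24 libraries. Mcm4 was at 3.06, 1.83, 1.74 and 1.78 CPM in ff;ff and at 3.33, 3.27, 3.95 and 4.37 in Cpt2L-/-, which gave 0.83 (adjusted p = 0.0421). Removing any 1 library other than ff;ff replicate 1 ended this call and that of Mcm6 (0.76, adjusted p = 0.0486). For Mcm4 in DKO the values were 4.89, 3.87, 3.25 and 4.88 CPM against 1.74, 2.31, 2.10 and 1.06 in Rab30L-/-, with no overlap (1.22, adjusted p = 0.00730). Mcm7 was at 9.61, 10.3, 13.6 and 13.3 CPM in ff;ff, 18.1, 17.4, 16.2 and 18.9 in Cpt2L-/-, 10.9, 11.2, 10.9 and 10.2 in Rab30L-/- and 18.5, 14.9, 20.3 and 16 in DKO. Its libraries fell into separate ranges with and without Cpt2, by log2 fold changes of 0.58 (adjusted p = 0.0206) and 0.69 (adjusted p = 0.00364). The first call ended on removal of ff;ff replicate 2 or Cpt2L-/- replicate 1, 2 or 4. Mcm7 overlaps exons of Ap4m1 and Cops6 on the other strand, neither of which was called. Of the 2 comparisons, Mcm3 was called in DKO against Rab30L-/- (0.89, adjusted p = 0.0238, edgeR), though not without DKO replicate 3, and not in the other (0.59, adjusted p = 0.115). In DKO against ff;ff its rise of 0.75 was not called (adjusted p = 0.0809, edgeR), but DESeq2, limma-voom and 1 fit over all 24 libraries called it. No difference between the 2 comparisons of Cpt2 loss was called for any Mcm gene.

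Of the genes of deoxynucleotide supply, Tk1 and Rrm2 fell. Thymidine kinase Tk1 (ENSMUSG00000025574, chr11:117815526-117826092, minus strand of GRCm38), which salvages thymidine, was at 37.3, 35.4, 21.5 and 36.6 CPM in ff;ff and at 6.66, 4.03, 2.72 and 3.68 in Cpt2L-/-. In Rab30L-/- it was at 30.8, 38.4, 33.1 and 39.2 CPM and in DKO at 9.01, 11, 3.90 and 3.85. No library that lost Cpt2 reached the lowest of the other 16. Tk1 fell by 2.94 on the log2 scale (SE 0.27, adjusted p = 1.3e-05, edgeR) in Cpt2L-/- and by 2.35 (0.33, adjusted p = 9.4e-04) in DKO against Rab30L-/-. Afmid, an enzyme of tryptophan breakdown on the opposite strand, shares 83 of the 5198 exonic bases of Tk1. It also fell, from 73.9 to 86.6 CPM in ff;ff to 8.09 to 15.8 CPM in Cpt2L-/-, by 2.75 (adjusted p = 5.7e-06), and by 1.77 in DKO against Rab30L-/- (adjusted p = 0.00212). Where each read of the shared stretch came from was not tested.

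Rrm2, the small subunit of ribonucleotide reductase, was at 6.20, 7.57, 6.76 and 9.08 CPM in ff;ff and at 0.705, 2.52, 0.907 and 0.687 in Cpt2L-/-. These groups were far apart (log2 fold change -2.62, SE 0.38, adjusted p = 3.0e-04, edgeR). In Rab30L-/- it was at 6.11, 3.96, 2.89 and 7.59 CPM and in DKO at 1.12, 2.32, 2.60 and 3.24, where the ranges overlapped and the change was -1.13 (adjusted p = 0.0383), a call that ended on removal of any 1 library other than Rab30L-/- replicates 2 and 3 and DKO replicate 4. The difference between these changes, an interaction of 1.5, was not called (adjusted p = 0.131). The large subunit Rrm1 was called as higher in DKO against Rab30L-/- (0.49, adjusted p = 0.0443, edgeR), and removal of any 1 library other than Rab30L-/- replicate 3 ended the call. In DKO against ff;ff its rise of 0.69 was not called (adjusted p = 0.0562, edgeR). It was called there by DESeq2, limma-voom, 1 fit over all 24 libraries, with no filter on low counts and without ff;ff replicate 4. Pcna, the replication gene with the highest FPKM, was at 29.7, 22.6, 17.9 and 26.3 CPM in ff;ff and at 21.9, 28.1, 27.8 and 19.8 in Cpt2L-/-. It was at 23.8, 21.5, 22.1 and 16.8 CPM in Rab30L-/- and at 23.9, 24.9, 24.1 and 28.4 in DKO. Its log2 fold changes of 0.01 (SE 0.18) and 0.27 (0.13) were not called, nor were those of thymidylate synthase Tyms (0.56 and -0.22).

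**Figure D3:**
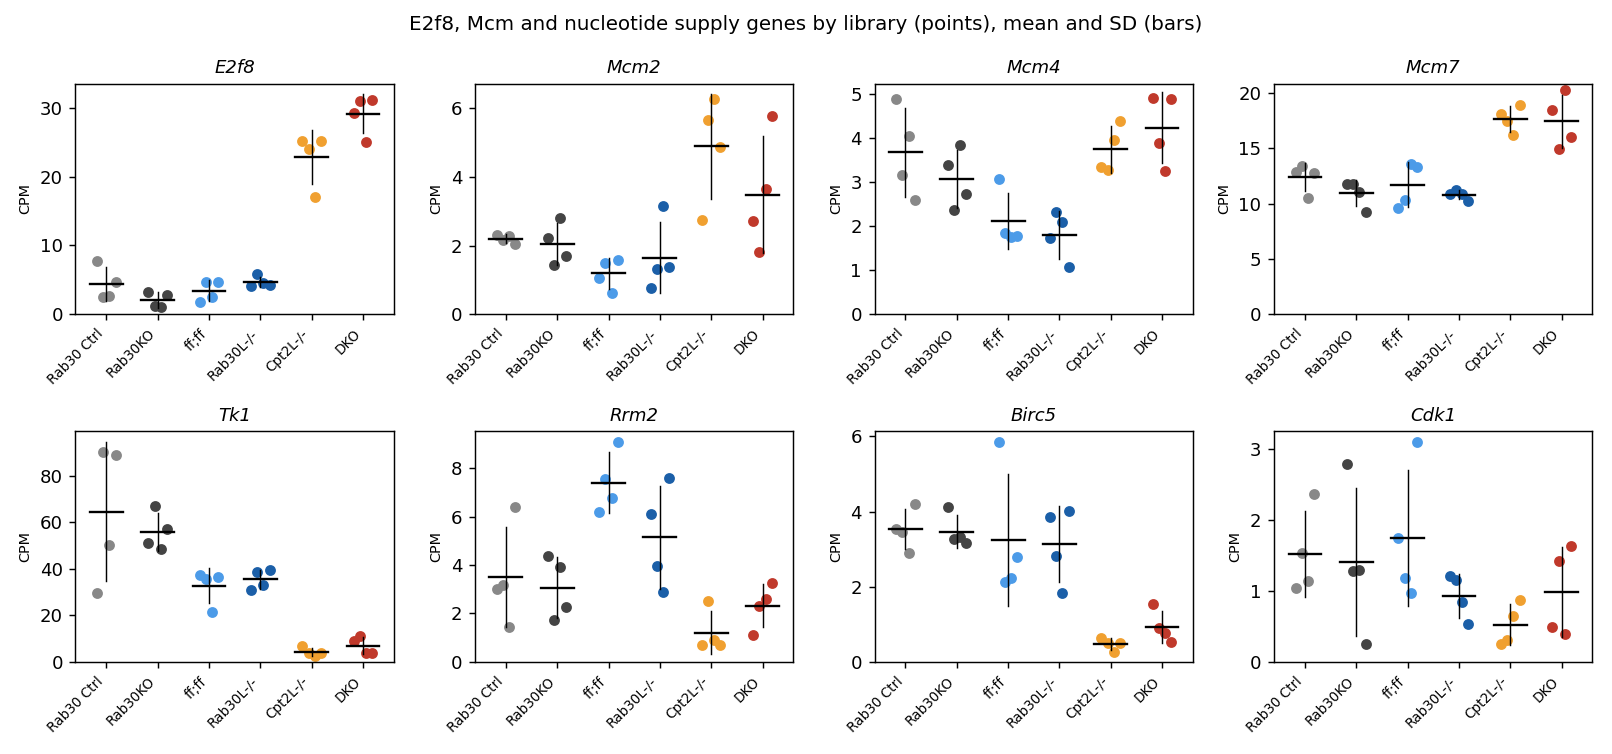
CPM of E2f8, Mcm2, Mcm4, Mcm7, Tk1, Rrm2, Birc5 and Cdk1 in each library (points) by group, with the mean (horizontal bar) and SD (vertical bar, drawn to 0 at the lowest). E2f8 and Mcm7 are higher and Tk1 lower in all 8 libraries of Cpt2L-/- and DKO than in the other 16.

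Among the mitotic genes, Birc5, an inhibitor of apoptosis that also serves the chromosomal passenger complex, was at 5.85, 2.13, 2.23 and 2.79 CPM in ff;ff and at 0.641, 0.504, 0.259 and 0.500 in Cpt2L-/-. It was at 3.85, 2.80, 1.85 and 4.02 CPM in Rab30L-/- and at 1.54, 0.903, 0.780 and 0.516 in DKO. All 8 libraries without Cpt2 lay below the other 16, and Birc5 fell by 2.74 (SE 0.43, adjusted p = 5.5e-04, edgeR) and 1.75 (0.40, adjusted p = 0.00679) on the log2 scale. The counts behind the low group are small, 4 to 10 reads in each Cpt2L-/- library. Cdk1, the mitotic kinase, was at 1.75, 1.18, 0.976 and 3.11 CPM in ff;ff and at 0.256, 0.315, 0.648 and 0.874 in Cpt2L-/-. It fell by 1.74 (adjusted p = 0.0195), and removal of ff;ff replicate 4 or Cpt2L-/- replicate 1 or 2 ended the call. In DKO it was at 0.489, 1.42, 0.390 and 1.64 CPM and in Rab30L-/- at 1.21, 1.15, 0.839 and 0.531, and it was not called (0.11, adjusted p = 0.887). Of the other 19 mitotic genes that were neither of these nor Pttg1 or Hjurp, 8 were tested in no comparison and edgeR called none of the other 11. Under other tools, filters or sets of libraries, Aurka, Ccnb2, Ect2, Kif20a, Anln and Cdc20 were each called in at least 1 comparison.

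The markers of other cells moved with these falls in part. The summed level of 6 erythroid markers was 84.2 to 160 CPM in Cpt2L-/- and 204 to 630 in ff;ff, and all 4 erythroid markers tested fell. In DKO and Rab30L-/- the erythroid sums overlapped (119 to 401 and 266 to 638 CPM), with 1 of 4 lower. Of 8 Kupffer cell and macrophage markers, 1 rose and 3 fell in Cpt2L-/- against ff;ff, where the sums overlapped (177 to 238 and 169 to 306 CPM). In DKO against Rab30L-/-, 1 rose and 6 fell, and the sums were 163 to 217 and 218 to 644 CPM. Lymphocyte and bile duct marker sums overlapped in both comparisons. Of the bile duct markers tested, 1 of 4 fell in the first comparison and 1 of 3 in the second, and none rose. The part of these cell types in the lower Tk1, Rrm2, Birc5 and Cdk1 was not tested.

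Of the p53 targets and arrest genes, none of the 5 tested was called by edgeR in Cpt2L-/- against ff;ff, where 23.8% of all genes tested were called, though Btg2 was called there and in DKO against ff;ff without ff;ff replicate 3. Gadd45b and Mdm2, 2 of 6 tested (33.3%), rose in DKO against Rab30L-/-, a share near the 30.7% of all genes tested. Gadd45b, a stress gene, was at 8.15, 1.24, 4.74 and 1.44 CPM in Rab30L-/- and at 14.6, 15.3, 12.3 and 13.9 in DKO (log2 fold change 1.83, SE 0.51, adjusted p = 0.0259, edgeR). In ff;ff it was widely spread, at 2.97, 13.4, 22.9 and 8.19 CPM, and in Cpt2L-/- it was at 19.6, 10.5, 11.8 and 16.2. Mdm2 was at 42.0, 41.6, 31.4 and 47.3 CPM in Rab30L-/- and at 52.2, 58.4, 49.7 and 78.3 in DKO (0.56, adjusted p = 0.0290). In ff;ff it was at 53.4, 42.9, 40.0 and 48.8 CPM, and in Cpt2L-/- at 53.8, 57.3, 48 and 57.2, which was not called (0.22, adjusted p = 0.300). The Gadd45b call ended on removal of Rab30L-/- replicate 3 or DKO replicate 1, 2 or 4 or with no filter on low counts, and that of Mdm2 on removal of Rab30L-/- replicate 2 or 3 or DKO replicate 2 or 4. Ccng1, the arrest gene with the highest FPKM, was at 51.8, 46.0, 37.5 and 41.3 CPM in Rab30L-/- and at 48.2, 56.7, 50.5 and 76.7 in DKO, with overlap and no call (0.39, adjusted p = 0.0889, edgeR). With no filter on low counts this rise was called. In ff;ff and Cpt2L-/- Ccng1 was at 57.9, 34.3, 29.9 and 49.2 CPM and at 42.3, 51.4, 53.9 and 46.3 CPM.

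Cdkn1a and Btg2 are described after their values were seen. Cdkn1a was widely spread within groups. It was at 20.2, 85.7, 96.5 and 47.2 CPM in ff;ff, 32.4, 67.4, 72.6 and 76.2 in Cpt2L-/-, 48.2, 9.65, 3.73 and 5.24 in Rab30L-/- and 24.9, 35.9, 137 and 72.1 in DKO. The 8 libraries of Rab30KO and Rab30 Ctrl lay between 3.46 and 13.9 CPM, below every ff;ff, Cpt2L-/- and DKO library. With edgeR on the libraries of each comparison, Cdkn1a was not called (log2 fold changes of -0.02 and 2.01, with SE of 0.47 and 1.0, for loss of Cpt2 without and with loss of Rab30). In DKO against Rab30L-/- it was called without Rab30L-/- replicate 1, the library at 48.2 CPM, and in 1 fit over all 24 libraries. Btg2 was at 9.68 to 12.6 CPM in the 8 libraries of the whole-body knockout and its littermates and at 14.5 to 76.3 CPM in the other 16. The whole-body and floxed animals are separate mouse lines, so line and allele cannot be told apart between them. The Rab30L-/- libraries, of a floxed line, were at 29.4 to 56.9 CPM for Btg2, while 3 of the 4 lay within the Rab30KO and Rab30 Ctrl range for Cdkn1a.

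**Figure D4:**
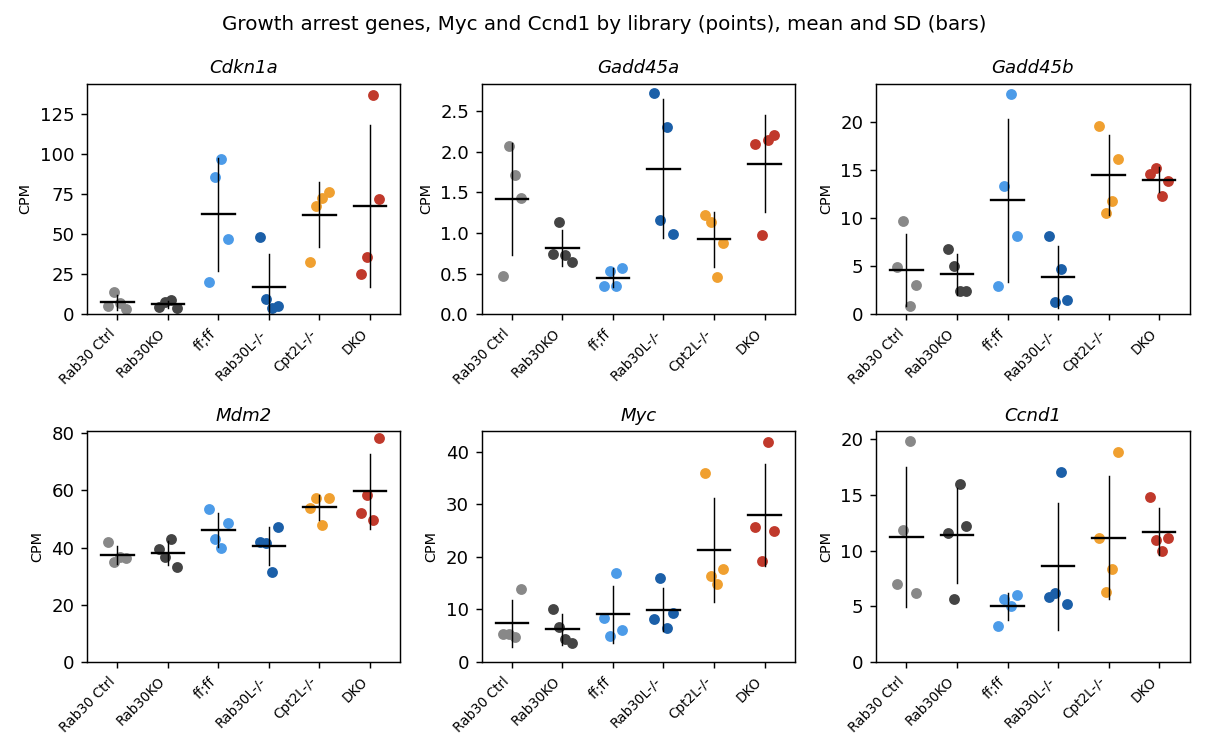
CPM of Cdkn1a, Gadd45a, Gadd45b, Mdm2, Myc and Ccnd1 in each library (points) by group, with the mean (horizontal bar) and SD (vertical bar, drawn to 0 at the lowest). Cdkn1a spans 20.2 to 96.5 CPM within ff;ff, and Myc reaches its highest value, 42.0 CPM, in DKO replicate 3.

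DKO against ff;ff shares the ff;ff libraries with Cpt2L-/- against ff;ff, so the 2 do not stand as separate evidence. Of 32 members tested, 7 were higher and 4 lower, where 7.87% of all genes tested were higher and 8.24% lower. E2f8 (log2 fold change 3.07), Gadd45a (2.0), Myc (1.62), Mcm2 (1.54), Ccnd1 (1.22), Mcm4 (1.01) and Mcm7 (0.56) rose, while Tk1 (-2.25), Birc5 (-1.80), Rrm2 (-1.67) and Hjurp (-0.66) fell. Of these calls, Mcm2 ended without DKO replicate 4, Myc without ff;ff replicate 1, Hjurp without DKO replicate 1 or 4 or ff;ff replicate 4, and Mcm4 without DKO replicate 1 or 4 or ff;ff replicate 2, 3 or 4. Removing any 1 library other than ff;ff replicate 3 ended that of Mcm7. The Mcm2 call was also lost with limma-voom, those of Myc and Mcm7 with no filter on low counts, and that of Hjurp in 1 fit over all 24 libraries. Gadd45a, a stress and DNA damage gene, was at 0.349, 0.532, 0.349 and 0.571 CPM in ff;ff and at 2.09, 0.968, 2.15 and 2.20 in DKO (adjusted p = 0.00550, edgeR). Rab30L-/- was as high, at 2.72, 1.15, 2.31 and 0.987 CPM, and Cpt2L-/- lay between at 1.22, 1.13, 0.453 and 0.874. Without Cpt2 loss, the Rab30L-/- libraries did not overlap ff;ff either, but that change was not called by edgeR (1.96, adjusted p = 0.0992). DESeq2, 1 fit over all 24 libraries and the fit with no filter on low counts called it. The ff;ff counts were 4 to 9 reads per library.

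Few of these genes differed between the livers labelled as lacking Rab30 alone and their controls. In Rab30L-/- against ff;ff, edgeR called none of 36 members tested higher and 2 lower, where 0.299% of all genes tested were higher and 0.180% lower. Both are mitotic. Pttg1 (securin, ENSMUSG00000020415, chr11:43420250-43426251, minus strand of GRCm38), which holds separase in check until anaphase, was at 18.9, 11.4, 16.3 and 11.2 CPM in ff;ff and at 1.51, 1.90, 1.22 and 0.835 in Rab30L-/-. Pttg1 fell by 3.42 (SE 0.29, adjusted p = 2.4e-04, edgeR). Hjurp (ENSMUSG00000044783, chr1:88262471-88277633, minus strand), which loads the centromeric histone Cenpa, was at 121, 109, 107 and 115 CPM in ff;ff and at 38.2, 47.4, 30.8 and 46.1 in Rab30L-/-, and fell by 1.48 (0.16, adjusted p = 0.00181). These calls, too, held in every fit without 1 library.

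The low level of Pttg1 was not seen in every group that lost Rab30. Pttg1 was at 17.9, 9.94, 20.2 and 22.5 CPM in DKO, which also lost Rab30 in the liver, against 19.4, 21.8, 31.9 and 22.2 in Cpt2L-/-. Hjurp in DKO was at 48.4, 77.0, 90.7 and 70.8 CPM, between Rab30L-/- and Cpt2L-/- (120, 132, 99.4 and 118 CPM). Pttg1 was higher in DKO than in Rab30L-/- (log2 fold change 3.70, adjusted p = 2.3e-05, edgeR), as was Hjurp (0.82, adjusted p = 0.00985, but 0.0569 with limma-voom), and Pttg1 was also higher in Cpt2L-/- than in ff;ff (0.71, adjusted p = 0.0255), a call that ended on removal of ff;ff replicate 2 or 4 or Cpt2L-/- replicate 3 and in 1 fit over all 24 libraries (adjusted p = 0.477). Among the wildtype littermates, Rab30 Ctrl, Pttg1 was at 13.7 and 14.6 CPM in replicates 1 and 2 and at 1.64 and 1.49 CPM in replicates 3 and 4. In Rab30KO it was at 1.24, 13.3, 1.52 and 1.75 CPM. Thus both levels of Pttg1, near those of ff;ff and of Rab30L-/-, occurred within 1 labelled genotype. Hjurp was at 86.6, 90.0, 123 and 47.6 CPM in Rab30 Ctrl and at 55.2, 142, 44.0 and 87.3 in Rab30KO. The Rab30KO library with high Pttg1, replicate 2, was also the highest of the 24 in Hjurp. In Rab30 Ctrl, though, the highest Hjurp (123 CPM) was in replicate 3, where Pttg1 was low (1.64 CPM).

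**Figure D5:**
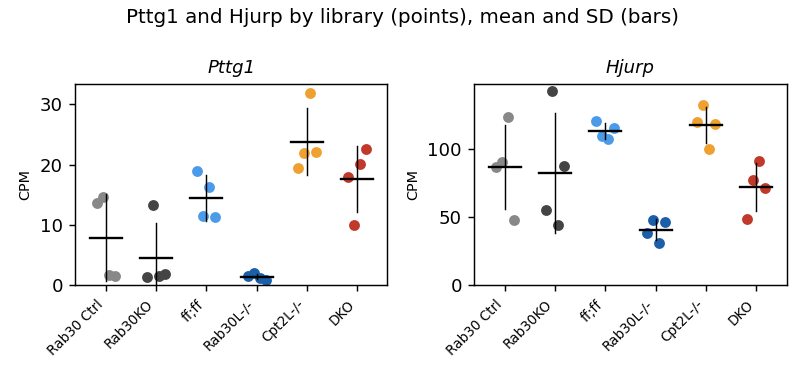
CPM of Pttg1 and Hjurp in each library (points) by group, with the mean (horizontal bar) and SD (vertical bar, drawn to 0 at the lowest). All 4 Rab30L-/- libraries are low for Pttg1 (0.835 to 1.90 CPM), and Rab30 Ctrl and Rab30KO each hold libraries at both levels.

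In the whole-body knockout, Rab30KO against Rab30 Ctrl, none of 37 members tested was called by edgeR, where 0.0220% of all genes tested were higher and 0% lower. By unadjusted p under 0.05 there was 1, E2f8 (log2 fold change -1.10, adjusted p = 1.0), and DESeq2 and limma-voom also called 0. In DKO against Cpt2L-/-, where 1.38% of all genes tested were higher and 1.33% lower, edgeR called none of 32 members, with 5 at an unadjusted p under 0.05. These were Hjurp (-0.70, adjusted p = 0.0557), Gadd45a (1.01), Ccne2 (0.77), Ccne1 (0.70) and E2f8 (0.36). How many of all genes tested had an unadjusted p under 0.05 was not counted in either comparison, and the percentages given are of calls. DESeq2 and limma-voom each called 1, Hjurp. The interaction asks whether Cpt2 loss acts differently without Rab30. It was called for Pttg1 alone of 37 members tested (3.0, SE 0.38, adjusted p = 1.9e-04, edgeR), and 2.20% of all genes tested had a positive and 1.86% a negative call. For E2f8 the interaction was -0.06 (SE 0.33), for Tk1 0.59 (0.45) and for Birc5 1.0 (0.60), none of them called.

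Other genes of the same pathways were counted from lists written down by role. In Cpt2L-/- against ff;ff, 5 of 22 other S phase genes rose and 3 fell (36.4% called, against 23.8% of all genes tested), and the median log2 fold change was 0.44. The largest rises were those of the DNA ligase Lig1 (1.72), the polymerase delta subunit Pold1 (1.28) and the primase Prim1 (1.16), and the falls were those of Cdc45 (-1.94), Brca1 (-1.43) and Mcm10 (-0.88). In DKO against Rab30L-/-, 1 of 22 rose, Lig1 (1.45), and 2 fell, Brca1 (-2.12) and Mcm10 (-1.19). The 13.6% called there was below the 30.7% of all genes tested. Of 17 other G2 and mitosis genes tested in each, 1 rose and 3 fell, then 2 rose and 4 fell. These shares, 23.5% and 35.3%, were near those of all genes tested. Spc25, a kinetochore subunit, rose in both (1.28 and 1.42) and Smc4 in the second (0.63). Lamin B1, Lmnb1, fell in both (-0.86 and -1.30), as did Ccnf (-1.02 and -0.79), with Cdca3 (-1.17) in the first and Cks2 (-0.72) in the second.

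Of 22 other cyclins, Cdks, pocket proteins and E2fs, 5 rose and 2 fell in Cpt2L-/- against ff;ff, led by Cdk4 (1.11), Cdk6 (1.02) and Lin37 (0.66), with Tfdp2 (-1.42) and Rbl2 (-0.55) falling. In DKO against Rab30L-/-, 8 rose and 1 fell, led by Wee1 (1.22), which restrains Cdk1, the pocket protein Rb1 (1.09) and Cdk6 (0.95), with Tfdp2 falling (-0.73). The shares called were 31.8% and 40.9%, against the same 23.8% and 30.7% of all genes. Of 3 other Cdk inhibitors tested, none was called in the first comparison and Cdkn2d fell in the second (-1.62).

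Other p53 pathway genes moved in both directions in Cpt2L-/- against ff;ff, with 10 of 37 higher and 5 lower (40.5% called, against 23.8% of all genes tested) and a median of 0.064. Among those called, the stress hormone Gdf15 (3.17), the death receptor Tnfrsf10b (2.36) and Ier3 (2.06) rose most, and Gadd45g (-2.27), Trp53inp1 (-1.65) and Dcxr (-1.62) fell most. In DKO against Rab30L-/-, 6 of 36 were higher and 1 lower, with Gdf15 (2.68), Plk3 (1.15) and Ccng2 (0.93) rising most and Dcxr (-0.91) falling. Ccng2, a cyclin linked to cell cycle exit, had fallen in the first comparison (-0.85). The 19.4% called in the second comparison was below the 30.7% of all genes. Of 14 other immediate early and growth signal genes, 2 rose and 2 fell in the first comparison, where Atf3 (2.67) and Klf6 (2.47) rose and Mycl (-1.43) and Dusp1 (-1.30) fell. In the second, 5 rose and 3 fell, with Atf3 (4.36), Klf6 (3.06) and Jun (2.10) rising most and Junb (-1.67), Ier2 (-0.64) and Mxd1 (-0.60) falling. The shares called were 28.6% and 57.1% of these 14 genes, against 23.8% and 30.7% of all genes tested.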

How the data were processed

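The labels name HISAT2, DESeq2 and the GRCm38 build among the submitters' processing notes, with no versions. The sequencing company made the libraries. The counter and the use of strand are not given in the sources used here. The authors deposited raw counts per gene (54532 genes, none without a name) and FPKM values, which divide counts by gene length and library size. The gene coordinates equal those of GENCODE M21 for 98.3% of genes. A normalized count table and the authors' own comparisons (fold changes and p-values) were not used.

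From the counts, genes were kept by filterByExpr (minimum count 10), scaled by TMM and tested with edgeR 4.0.16 in R 4.3.3 (glmQLFit with robust estimation, glmQLFTest), each comparison on its own 8 libraries and the interaction on 16. P-values were adjusted across every gene tested by the Benjamini-Hochberg method, and a call needed an adjusted p under 0.05 with a change of 1.2-fold or more. The SE given with edgeR results is the absolute log2 fold change divided by the square root of the test's F value. CPM are counts scaled to the library total over genes that passed the filter times its TMM factor, both over all 24 libraries. DESeq2 1.42.0 and limma-voom (limma 3.58.1) were alternatives, with other scalings, filters and each library left out in turn. The test was checked on simulated counts. All pairs of libraries within a group differed by more than counting noise. Figures were drawn with matplotlib in Python 3.11.15.

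Every member called is named. Values in each library are given for up to 5 members of a role with the smallest adjusted p among those called, and for the member with the highest mean FPKM. From other lists, up to 3 rises and 3 falls with the largest log2 fold change are named. The members and lists were chosen with earlier results of these data known. Each library is 1 mouse by the methods. Reads are not independent molecules.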

Additional observations from a re-analysis of the deposited data

Results flagged for a closer look

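For Pttg1, the change from Rab30L-/- to DKO exceeded that from ff;ff to Cpt2L-/- by 3.0 on the log2 scale (SE 0.38, adjusted p = 1.9e-04, edgeR interaction over 16 libraries). Pttg1 was higher in all 4 DKO libraries than in all 4 Rab30L-/- libraries. In 1 fit over all 24 libraries this interaction was not called. Both levels of Pttg1 also occurred among libraries of 1 label in Rab30 Ctrl and in Rab30KO, so the difference was not shown to follow the genotypes.

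Single libraries stood apart from the other 3 of their group in 18 of 240 sets of a member and a group. The rule was Dixon's ratio on CPM, the gap to the nearest other library divided by the range of the group, above its critical value. Chance gives about 1 in 20 such sets only if values are independent and normally distributed. That was not tested for these CPM, and members measured in the same library are not independent. The rate over all genes was not counted, so whether these sets exceed chance cannot be told. Rab30L-/- replicate 3 was high in Ccnd1 (17.1 CPM, others at most 6.19), Ccnd2 (7.25, at most 3.49), Rrm1 (9.77, at most 7.36) and Btg2 (56.9, at most 33.6). Rab30L-/- replicate 1 was high in Cdkn1a (48.2 CPM, at most 9.65). In the Rab30KO group, replicate 2 was high in Pttg1 (13.3 CPM, at most 1.75), replicate 3 in Kif20a (1.23, at most 0.607) and replicate 1 in Birc5 (4.12, at most 3.32), while replicate 4 was low in Aurka (0.711, at least 2.39). In Rab30 Ctrl, replicate 4 was high in Myc (13.9 CPM, at most 5.33) and replicate 2 in Mcm5 (1.43, at most 0.948). In ff;ff, replicate 1 was high in Mcm4 (3.06 CPM, at most 1.83) and replicate 3 low in Tk1 (21.5, at least 35.4). In Cpt2L-/-, replicate 2 was high in Rrm2 (2.52 CPM, at most 0.907), replicate 1 in Myc (36.1, at most 17.7), and replicate 3 was low in E2f8 (17.1, at least 24.0). In DKO, replicate 3 was high in Btg2 (76.3 CPM, at most 40.6) and replicate 2 low in Gadd45a (0.968, at least 2.09).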

How the results depend on the processing

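Over all alternatives, 39 calls of a member in a comparison gave 549 values, of which 464 kept the call, 85 lost it and 0 changed direction. Of the 39, 20 kept the call in every setting in which they were tested. Among those 20, Mcm2 and Birc5 in Cpt2L-/- against ff;ff and Gadd45a in DKO against ff;ff were not tested under the filter of at least 10 counts in every library. Calls were lost in 17 of 229 values under another tool, scaling or filter and in 68 of 320 with a library left out. With limma-voom these were Ccnd1 (Cpt2L-/- against ff;ff), Hjurp (DKO against Rab30L-/-) and Mcm2 (DKO against ff;ff). With no filter on low counts they were Mcm4 and Mcm6 (Cpt2L-/- against ff;ff), Rrm1 and Gadd45b (DKO against Rab30L-/-), and Mcm7 and Myc (DKO against ff;ff). In 1 fit over all 24 libraries they were Mcm6 and Pttg1 (Cpt2L-/- against ff;ff), Cdkn2c, Rrm1 and Rrm2 (DKO against Rab30L-/-), Hjurp (DKO against ff;ff) and the Pttg1 interaction, and with DESeq2's size factors Mcm6 (Cpt2L-/- against ff;ff). The number of members called in Cpt2L-/- against ff;ff was 11 and ranged from 7 to 11 with a library left out, with 7 without ff;ff replicate 4, Cpt2L-/- replicate 2 or Cpt2L-/- replicate 4. With other tools it was 13 (DESeq2) and 14 (limma-voom), both gaining Myc and Aurka. The number of all genes called moved as well. It was 3155 in the main fit, 3589 with DESeq2, 4216 with limma-voom and 2352 to 3459 with a library left out. In DKO against ff;ff the number of members called was 11, fell to 7 without DKO replicate 4, and was 13 with DESeq2, 13 with limma-voom and 14 in 1 fit over all 24 libraries. In the same order, 2157, 1670, 2742, 3739 and 2632 of all genes were called. In DKO against Cpt2L-/- the number of members called was 0 and became 1 with DESeq2, with limma-voom, with no filter on low counts and without DKO replicate 3, each time Hjurp. All genes called rose there from 360 to 1032, 1534, 705 and 445. For the interaction the number of members called was 1 and became 2 with DESeq2 (with Hjurp) and with limma-voom (with Gadd45b), and 0 in 1 fit over all 24 libraries. All genes called went from 571 to 1080, 1268 and 374. The members called were 2 without Rab30L-/- replicate 1 (with Cdkn1a), DKO replicate 1 (with Hjurp) or Cpt2L-/- replicate 2 (with Rrm2). In these fits 679, 416 and 365 of all genes were called. The causes were not tested. In DKO against Rab30L-/- the number of members called was 14 and ranged from 10 to 15 over all settings, while that of all genes was 4081 and ranged from 3204 to 4895. In Rab30L-/- against ff;ff 2 members were called, and 3 with DESeq2, with 1 fit over all 24 libraries and with no filter, each time gaining Gadd45a. All genes called rose there from 64 to 298, 94 and 240. In Rab30KO against Rab30 Ctrl the number of members called was 0 in every setting run.

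Members under about 1 CPM rest on few reads, and 8 of the 48 were never tested. No paired analysis was possible because replicate numbers only name the libraries.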
